A study of Mus musculus with 14 samples.

Results

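Left ventricles of wild type (WT) mice were compared 3 weeks after aortic banding (AB) or a Sham operation, for all genes on the array. The comparison rests on 7 of the 14 arrays in the series, 4 from WT AB mice and 3 from WT Sham mice, and each array held the LV RNA of 1 mouse. In AB a ligature narrows the ascending aorta, so that the LV has to eject against a raised pressure, and the Sham mice went through the same operation without the constriction. All 7 mice were male C57BL/6 with no engineered allele and the sources used here do not give their age. The load in this model starts abruptly, and AB mice had been admitted to the study by the flow velocity across the band. The other 7 arrays came from CXCR5-/- mice, which lack the receptor of the chemokine CXCL13, after the same operations (4 AB, 3 Sham). They entered the fit of the variance, and their own response to AB is set beside that of the WT mice at the end. Genes were grouped in 102 lists by pathway or cell type, with 2015 distinct genes in all, chosen to reach beyond the collagen matrix, the hypertrophy markers and fatty acid oxidation.

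A heart that pumps against pressure thickens its wall. The cardiomyocytes, which make up most of its mass, enlarge without dividing, while fibroblasts, macrophages and other small cells can multiply between them. The healthy adult LV burns mostly fatty acids, with glucose, lactate, ketone bodies and branched-chain amino acids as further fuels, and pressure load is known to shift this mixture. The spread of the electrical signal depends on ion channels and on the intercalated discs that join the ends of the cardiomyocytes, and the contractile units are tied together at Z-discs, which also sense stretch.

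Of 19937 genes tested, 1016 rose with AB (5.10%) and 842 fell (4.22%), so that 9.32% passed in either direction. A gene is said to have risen or fallen where its p-value from limma's moderated test, adjusted by the Benjamini-Hochberg method over all genes, was under 0.05. Levels are log2 values, so a difference of 1 is a doubling, and differences are given as AB minus Sham with the standard error (SE) of the fit. The changes were mostly small, with a median of 0.54 among the genes that rose and -0.52 among those that fell, and 106 genes rose and 36 fell by at least 1. The median difference over all genes was 0.011. The counts depended on single arrays: without Sham 2 they were 560 and 465, without Sham 3 611 and 391, and without AB 1 758 and 553. The total RNA was of whole LV tissue, and in such bulk samples fewer cells of a type and less RNA per cell cannot be told apart. Tnnt2, the cardiac troponin T of the thin filament, stood between 12.49 and 12.73 on the 7 arrays, among the highest levels measured. RNA of other tissues varied within the groups. Alb, the liver's albumin, ranged from 4.39 to 9.14 in the Sham and from 5.01 to 7.98 in the AB arrays, and Myl7, an atrial myosin light chain, from 6.10 to 9.09 and from 5.65 to 7.48. With the Alb level as a covariate 884 genes rose and 680 fell, and with an atrial score 979 and 795.

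The breakdown of branched-chain amino acids was the fuel pathway whose listed genes fell most often. Of 20 measured genes, 14 fell and the other 6 did not pass, with a median difference of -0.59, and in 15 of the 20 every AB array lay below every Sham array, which held for 7.74% of all genes. In this pathway leucine, isoleucine and valine are first stripped of their amino group, then committed by the branched-chain ketoacid dehydrogenase of the mitochondria, and finally taken apart by separate enzyme sets. Ppm1k encodes the phosphatase that switches the dehydrogenase on. Its level was 9.39, 9.47 and 9.50 in the 3 Sham arrays and 8.04, 8.37, 8.48 and 8.25 in the 4 AB arrays. The groups did not overlap, and the level fell by 1.17 ± 0.11 (adjusted p = 4.55e-06), which is 2.25-fold. Bckdhb, a subunit of the dehydrogenase's first enzyme, had levels of 8.88, 8.61 and 8.78 in Sham against 7.52, 7.93, 8.10 and 7.80 in AB. It fell by 0.92 ± 0.12 (adjusted p = 8.81e-05), again with no overlap. The genes named next were chosen for their place in the pathway after their values were seen. Dbt, the core subunit of the same complex, fell by 0.56 ± 0.11 (adjusted p = 0.00298). Bckdk, the kinase that switches the dehydrogenase off, differed by -0.34 (95% confidence interval -0.73 to 0.05) and Bcat2, which removes the amino group, by -0.34 (-0.68 to 0.00). Neither passed the test, both intervals reach to falls as large as that of Dbt, and Bcat2 passed without AB 3 (adjusted p = 0.0293).

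Enzymes further down fell in each branch. Apart from Mccc1 and Mccc2, the enzymes named here were likewise chosen for their place in the pathway after their values were seen. On the leucine branch Ivd, isovaleryl-CoA dehydrogenase, fell by 0.87 ± 0.14. The subunits of methylcrotonyl-CoA carboxylase followed, Mccc1 by 0.76 ± 0.09 (adjusted p = 5.21e-05) and Mccc2 by 0.78 ± 0.10 (adjusted p = 8.9e-05). Mccc2 stood at 8.24, 8.23 and 8.31 in Sham and at 7.19, 7.62, 7.59 and 7.52 in AB. For isoleucine and valine, Acadsb fell by 0.81 ± 0.16 and Aldh6a1 by 0.78 ± 0.13. Propionyl-CoA, the end product of both, enters the citrate cycle through propionyl-CoA carboxylase and methylmalonyl-CoA mutase, of which Pccb fell by 0.62 ± 0.10, Pcca by 0.51 ± 0.11 and Mmut by 0.69 ± 0.09. Mcee, the epimerase between these steps, differed by only 0.02 ± 0.12. Leaving out any of the 7 arrays left between 12 and 16 of the 20 genes past the threshold.

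**Figure D1:**
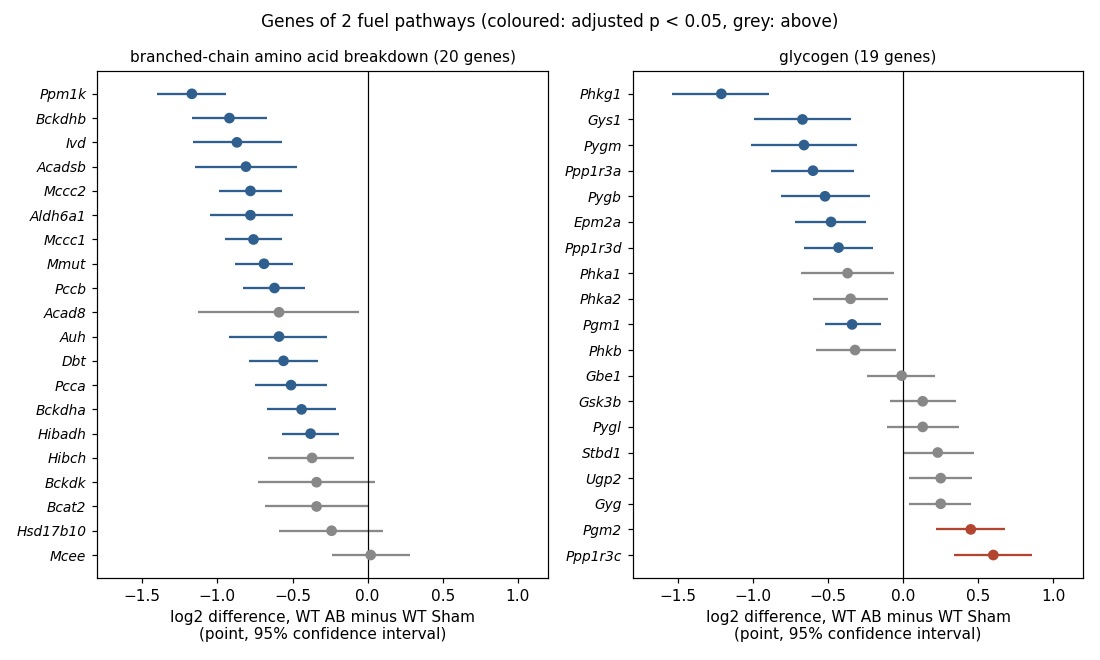
Log2 difference of AB minus Sham in WT LV for the 20 measured genes of branched-chain amino acid breakdown (left) and the 19 measured glycogen genes (right). Points are the differences from the fit, bars are 95% confidence intervals, and coloured points passed an adjusted p under 0.05. In the left panel 14 genes lie to the left of 0 in colour, led by Ppm1k at -1.17, while the glycogen panel holds 8 coloured genes to the left and 2 to the right.

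The citrate cycle showed a milder fall. Of its 22 measured genes 9 fell and the others did not pass, with a median of -0.33 (16 genes were lower at an unadjusted p under 0.05). Sdha, the flavoprotein of succinate dehydrogenase, had levels of 11.77, 11.82 and 11.76 in Sham and of 11.03, 11.33, 11.20 and 11.28 in AB. It fell by 0.58 ± 0.09 (adjusted p = 0.00065) with no overlap. Sucla2, a subunit of succinyl-CoA synthetase, fell by 0.47 ± 0.09 and Idh2, the mitochondrial isocitrate dehydrogenase that makes NADPH, by 0.43 ± 0.09. In the respiratory complexes that take up the electrons the share of genes that fell was near that of all genes. Of 34 measured subunits of complex I 2 fell (5.88%, beside 4.22% of all genes), of which Ndufv1 fell by 0.40 ± 0.08 (adjusted p = 0.00508). Of 36 subunits of complexes III to V 1 fell (2.78%). Without Sham 2 or Sham 3 these counts were 1 and 0, and the count of 1 was 0 without Sham 1, AB 1 or AB 3 and 2 without AB 2. The medians of these lists were -0.07 and -0.09. In limma 0 of 42 mitochondrial ribosome genes passed, with 1 higher and 3 lower at an unadjusted p under 0.05 and 0 by significance analysis of microarrays (SAM), and a median of 0.00. Without AB 4 the list gained 1 gene that rose, and without AB 3 1 that fell. Vdac1, the main pore of the outer mitochondrial membrane, had a mean level of 11.01 ± 0.01 (SD, n = 3) in Sham and 10.44 ± 0.15 (SD, n = 4) in AB. It fell by 0.57 ± 0.11 (adjusted p = 0.00242). Ppara, the nuclear receptor that drives genes of fatty acid use, fell by 0.61 ± 0.13 (adjusted p = 0.005). Its list of PPAR, ERR and PGC-1 regulators had 5 of 17 genes that fell, and 2 without Sham 2, 1 without Sham 3 and 3 without AB 1.

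Genes of glucose use moved in both directions. Of 21 measured genes of glucose entry and glycolysis 3 rose and 6 fell, and without Sham 3 3 fell. Pfkp, the platelet form of phosphofructokinase, rose by 0.85 ± 0.09 (adjusted p = 1.71e-05), from 8.38, 8.36 and 8.35 in Sham to 9.14, 9.33, 9.16 and 9.21 in AB. Hk2, the insulin-responsive hexokinase of muscle, fell by 0.71 ± 0.14 and Eno3, the muscle enolase, by 0.49 ± 0.09. Slc2a4, the insulin-responsive glucose transporter GLUT4, fell by 0.93 ± 0.21 (adjusted p = 0.00748, and 0.0522 without Sham 3), whereas Slc2a1, the basal transporter GLUT1, differed by 0.03 (95% confidence interval -0.19 to 0.25). These transporters were chosen after their values were seen. Tbc1d4, which holds GLUT4 inside the cell until insulin acts, fell by 1.12 ± 0.17 (adjusted p = 0.000331). Pdp2, a phosphatase that switches on pyruvate dehydrogenase, fell from 6.23, 6.30 and 6.34 to 5.05, 5.25, 5.27 and 5.32, by 1.06 ± 0.14 (adjusted p = 9.62e-05). Ppm1k and Pdp2 thus each encode a phosphatase of a mitochondrial dehydrogenase, and both fell by more than 1 on the log2 scale.

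Glycogen genes fell on the side of synthesis as well as of breakdown, although their count leaned on a few arrays. Of 19 measured genes 8 fell and 2 rose (1 without Sham 1 or Sham 2), with a median of -0.34, and the number that fell was 3 without Sham 2, 1 without Sham 3 and 4 without AB 1. Phkg1, the muscle catalytic subunit of phosphorylase kinase, which starts glycogen breakdown, was at 6.40, 6.48 and 6.86 in Sham and 5.28, 5.40, 5.55 and 5.23 in AB. It fell by 1.21 ± 0.15 (adjusted p = 7.96e-05) and kept its call without any of the 7 arrays. Ppp1r3c, a subunit that brings a phosphatase to glycogen and favours synthesis, rose by 0.60 ± 0.12 (adjusted p = 0.00435). Fbp2, the muscle fructose bisphosphatase, which runs against glycolysis, fell by 1.29 ± 0.17, from 8.43, 7.75 and 7.81 in Sham to 6.35, 7.06, 6.95 and 6.46 in AB.

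Ketone body genes split by step. Slc16a7, the monocarboxylate transporter MCT2, fell by 0.95 ± 0.15 and Oxct1, which activates acetoacetate for burning, by 0.53 ± 0.11 (adjusted p = 0.00526). Bdh1, the mitochondrial enzyme that oxidises 3-hydroxybutyrate to acetoacetate, rose by 0.72 ± 0.15 (adjusted p = 0.00625) from 8.94, 8.87 and 9.21 in Sham to 9.40, 9.84, 10.09 and 9.56 in AB. The groups did not overlap in these genes. Genes for the coenzyme NAD moved too: Nmrk2, the muscle nicotinamide riboside kinase, rose by 1.62 ± 0.18 (adjusted p = 2.42e-05), at 6.57, 6.32 and 6.41 in Sham and 8.40, 7.50, 8.46 and 7.85 in AB. Nampt, the rate-limiting enzyme of the main salvage route and chosen after its value was seen, fell by 0.67 ± 0.12 (adjusted p = 0.00134).

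**Figure D2:**
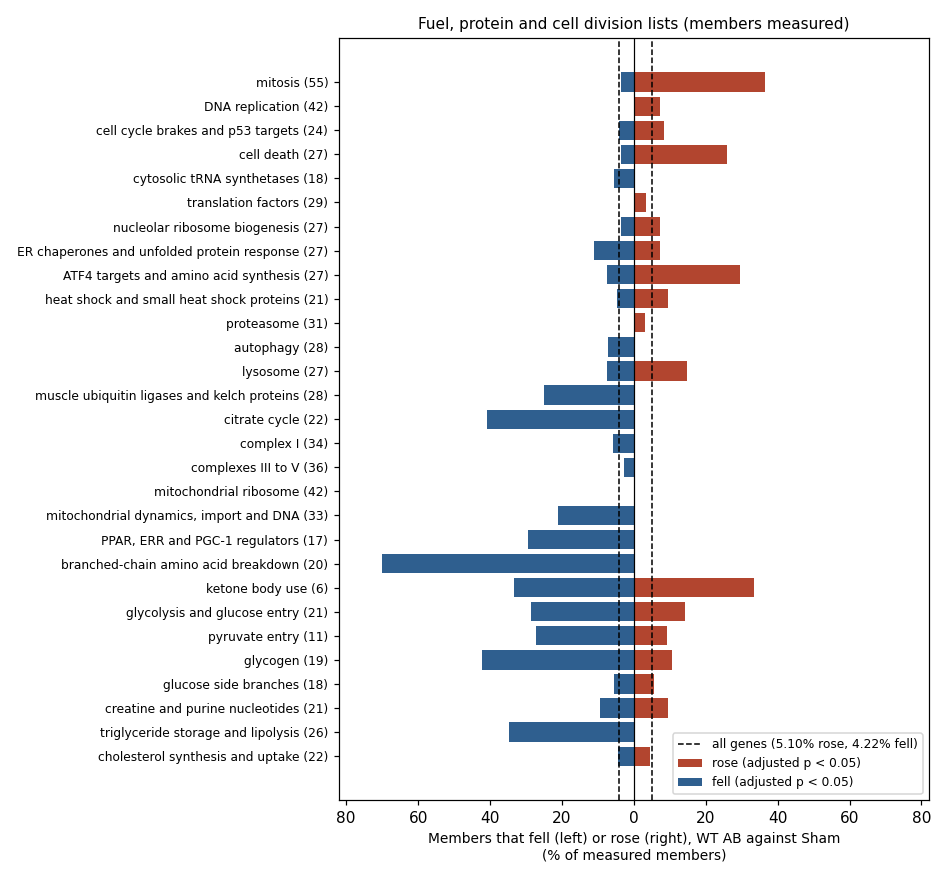
Share of the measured genes of each list for fuel use, protein turnover and cell division that rose (to the right) or fell (to the left) with AB in WT LV, in percent, at an adjusted p under 0.05. The number of measured genes is given with each list, and dashed lines mark the shares over all genes, 5.10% and 4.22%. Branched-chain amino acid breakdown has the longest bar to the left (14 of 20) and mitosis the longest to the right (20 of 55).

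Among genes of protein turnover, muscle-specific kelch and SOCS-box proteins fell. These are adaptors that lead proteins to cullin ubiquitin ligases. Of 28 measured muscle ubiquitin ligase and kelch genes 7 fell, and the number was 4 without Sham 2 and 11 without Sham 1 or AB 4. Klhl38 was at 7.80, 8.43 and 8.40 in Sham and at 7.16, 7.06, 6.62 and 6.91 in AB, and fell by 1.27 ± 0.20 (adjusted p = 0.000568). Klhl33 fell by 1.14 ± 0.16, Asb15 by 0.88 ± 0.14 and Asb14 by 0.87 ± 0.16. Trim63 and Fbxo32, the muscle atrophy ligases MuRF1 and atrogin-1, were named for that role after their values were seen. Trim63 differed by -0.16 (95% confidence interval -0.48 to 0.15) and Fbxo32 fell by 0.40 ± 0.11 (adjusted p = 0.0226, and 0.123 without Sham 2, 0.0771 without Sham 3 and 0.0569 without AB 1). Of 31 measured proteasome genes 1 passed (3.23%, and 0 without Sham 2, Sham 3 or AB 1). Of 28 autophagy genes 2 passed (7.14%, and 4 without Sham 1, 1 without Sham 3), beside 9.32% of all genes. Pink1, the kinase that marks damaged mitochondria for removal, was the stronger of these and fell from 9.85, 10.02 and 10.04 to 8.83, 8.96, 9.07 and 9.43, by 0.90 ± 0.12 (adjusted p = 0.000113). On the side of amino acid supply, 8 of 27 measured ATF4 targets and amino acid synthesis genes rose and 2 fell, and without Sham 2 5 rose and 1 fell, as 1 did without Sham 3. Mthfd2, a mitochondrial folate enzyme, rose by 0.86 ± 0.14 (adjusted p = 0.000788), Atf5 by 0.67 ± 0.11 and Nupr1, a stress-induced nuclear protein, by 1.12 ± 0.21, while Cth, the cysteine-forming enzyme of transsulfuration, fell by 0.93 ± 0.17. Hspd1, the mitochondrial chaperonin, fell by 0.37 ± 0.09 (adjusted p = 0.0113), a call that was lost with the 7 WT arrays alone (0.0515).

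Among the 31 cell type lists, those of activated fibroblasts and macrophages had the largest shares of genes that rose. Of 20 measured genes of activated fibroblasts 15 rose, with a median of 0.81, and 14 or 15 rose without any single array. Several of these genes were also known from earlier results on the same arrays, so their direction is a description. Meox1, a homeobox factor of activated cardiac fibroblasts, had levels of 7.18, 6.96 and 6.78 in Sham and of 8.51, 8.21, 9.07 and 9.16 in AB. It rose by 1.77 ± 0.18 (adjusted p = 1.12e-05). Fap, a surface protease of activated fibroblasts, rose by 0.60 ± 0.10 and Cthrc1, a secreted protein of the same cells, by 1.6 ± 0.21. The mean of the list, set to 0 for the Sham group, lay between -0.09 and 0.09 in the Sham arrays and between 0.98 and 1.26 in the AB arrays. Genes of resident fibroblasts moved both ways: Pi16, a marker of fibroblasts around vessels, rose by 1.24 ± 0.13 (adjusted p = 1.71e-05), whereas Scara5, a ferritin receptor of the same compartment, fell by 0.69 ± 0.09 (adjusted p = 7e-05), from 6.56, 6.58 and 6.47 to 5.79, 5.79, 5.86 and 5.93. Of the 16 genes in that list 7 rose and 1 fell, and without Sham 2 4 rose.

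Transcription factors of mesenchymal cells rose alongside, 11 of 29 measured, with a median of 0.38. Scx, the tendon factor scleraxis, was at 6.77, 6.73 and 6.35 in Sham and at 7.80, 7.63, 7.91 and 7.64 in AB and rose by 1.13 ± 0.14 (adjusted p = 7.68e-05). Twist1 rose by 0.74 ± 0.09 (adjusted p = 3.38e-05), Foxs1 by 0.67 ± 0.11 and Sox9, the factor of cartilage and valve cells, by 0.62 ± 0.13 (adjusted p = 0.00432). Tnmd, a membrane protein of tendon, rose by 1.42 ± 0.15, with levels of 4.21, 4.60 and 4.47 in Sham and of 6.09, 5.64, 5.98 and 5.67 in AB. In the epicardium and mesothelium list 3 of 13 genes rose (6 without Sham 1, 5 without AB 2, 2 without Sham 3). Aldh1a2, which makes retinoic acid in the epicardium, rose from 5.88, 5.55 and 5.64 to 6.41, 6.35, 7.01 and 7.03, by 1.01 ± 0.15 (adjusted p = 0.000331), and Tbx18 by 0.50 ± 0.09.

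Macrophage genes rose as a broad group. Of 19 measured genes 10 rose, with a median of 0.59, and in 12 every AB array lay above every Sham array, which held for 9.39% of all genes. Cd68, a lysosomal protein of macrophages, had levels of 6.95, 6.74 and 6.78 in Sham and of 7.71, 7.66, 7.92 and 7.45 in AB. It rose by 0.86 ± 0.14 (adjusted p = 0.000807). Mpeg1, a pore-forming protein of phagocytes, rose by 0.81 ± 0.12, Fcer1g, an adaptor of Fc receptors, by 0.98 ± 0.15 and Cx3cr1, the fractalkine receptor, by 0.75 ± 0.12. The mean of the list rose on every AB array, to between 0.48 and 0.58 above the Sham mean. Csf1r, the growth factor receptor that all macrophages carry, differed by 0.12 (95% confidence interval -0.14 to 0.38). Among genes of the macrophages that already live in the heart, 6 of 16 rose (3 without Sham 2), among them Igf1, a growth factor (1.28 ± 0.12, adjusted p = 3.42e-06), Vsig4, a complement receptor of resident macrophages (1.28 ± 0.30, adjusted p = 0.0103, and 0.0537 without Sham 2 and 0.0608 without Sham 3), and the complement genes C1qb (0.69 ± 0.13) and C1qc (0.56 ± 0.11). The surface markers Timd4 and, named after its values were seen, Cd163 of these cells differed by -0.21 (95% confidence interval -0.52 to 0.09) and -0.54 (-0.97 to -0.10, adjusted p = 0.124, and 0.00497 without Sham 1). Of 11 measured monocyte genes 3 rose, among them Ccr2, the receptor that brings monocytes out of the bone marrow, by 0.59 ± 0.12 (adjusted p = 0.00498), from 4.28, 4.09 and 4.13 to 4.64, 4.63, 4.81 and 4.94.

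The lymphocyte lists had shares near the 9.32% of all genes that passed. Of 17 T cell genes 1 passed (5.88%), Ctla4, an inhibitory receptor, which fell by 0.64 ± 0.13 (adjusted p = 0.00367). Cd3e, a chain of the T cell receptor complex, was at 5.29, 5.33 and 4.69 in Sham and at 5.38, 5.26, 5.70 and 5.06 in AB (difference 0.25, 95% confidence interval -0.09 to 0.59). The groups overlapped, and the mean of the T cell list was 0.35 above the Sham mean in AB 3 and at most 0.03 above it in the other AB arrays. Of 13 B cell genes 1 rose (7.69%, and 2 without AB 1), Cd72, a surface receptor, by 1.01 ± 0.17 (adjusted p = 0.0012). Cd79a, a chain of the B cell receptor, differed by 0.47 (95% confidence interval 0.09 to 0.85, adjusted p = 0.124, and 0.0388 without AB 1), with 4.10, 3.67 and 3.75 in Sham and 3.88, 4.05, 4.43 and 4.88 in AB. Cxcr5, the receptor of CXCL13 on B cells, was named with it and stood between 3.03 and 3.30 on all 7 arrays. Its mean level was at percentile 16.4 of all genes, so low that a change could be missed. In limma 0 of 9 mast cell genes and 0 of 8 plasma cell genes passed (0 and 3 at an unadjusted p under 0.05, and 0 in each by SAM).

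In the general endothelial list the share that rose was that of all genes. Of 20 endothelial genes 1 rose (5.0%, beside 5.10% of all genes), and the median was -0.10. Pecam1, the platelet endothelial adhesion molecule, was at 8.91, 9.25 and 9.30 in Sham and at 8.96, 8.92, 9.11 and 9.31 in AB (difference -0.08, 95% confidence interval -0.35 to 0.20). Cdh5, the cadherin of endothelial junctions, differed by -0.15 (-0.45 to 0.15) and Pdgfrb, the receptor of pericytes and other mural cells, by 0.04 (-0.25 to 0.33). The single endothelial gene, Emcn, a surface sialomucin, rose by 0.40 ± 0.10 (adjusted p = 0.0177), and not without Sham 2 (adjusted p = 0.11). Capillary genes leaned downward, with 2 of 14 falling, 0 without Sham 2 or Sham 3 and 1 without AB 1 or AB 3. Abcc9, the regulatory subunit of an ATP-sensitive potassium channel in pericytes and cardiomyocytes, fell by 0.98 ± 0.16 (adjusted p = 0.000817), from 9.85, 10.22 and 10.17 to 8.79, 8.89, 9.21 and 9.49. In the lymphatic list 3 of 9 genes rose, Fgl2, Pdpn and Sema3d, genes that other cells also make. Lyve1 and Prox1, which define lymphatic endothelium, differed by -0.09 (-0.42 to 0.23) and -0.56 (-0.97 to -0.15, adjusted p = 0.0895, and 0.0196 without AB 4).

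**Figure D3:**
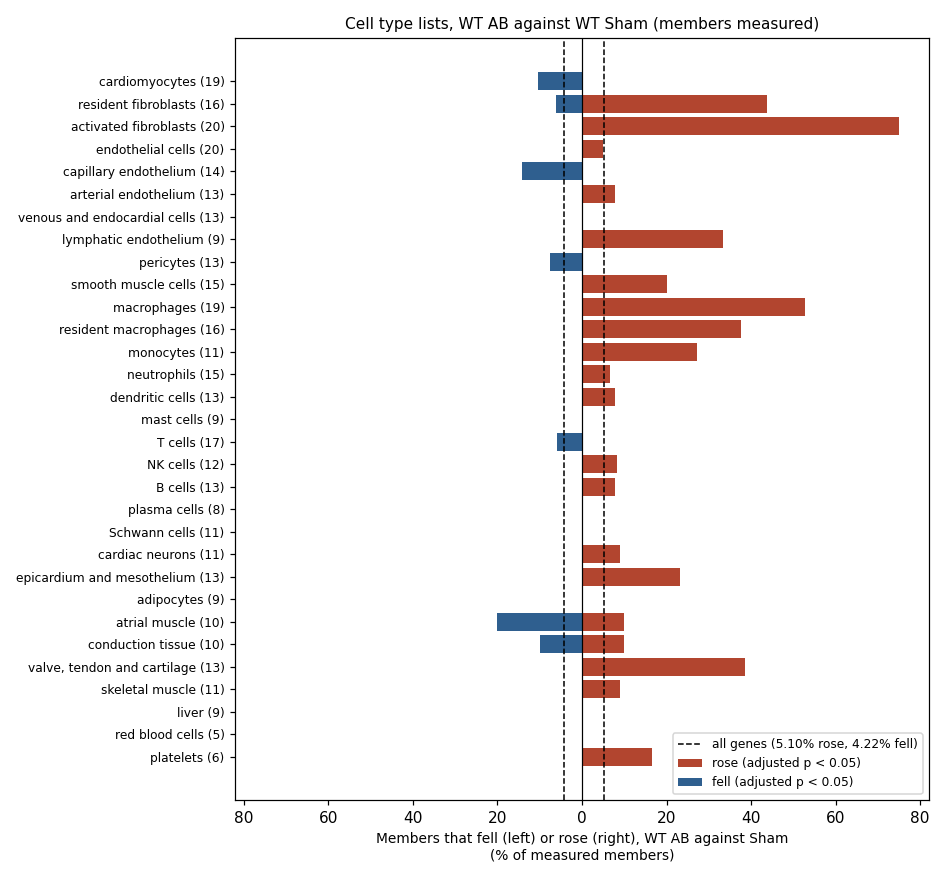
Share of the measured genes of each cell type list that rose (to the right) or fell (to the left) with AB in WT LV, in percent, at an adjusted p under 0.05, with the number of measured genes. Dashed lines mark the shares over all genes, 5.10% and 4.22%. Activated fibroblasts (15 of 20) and macrophages (10 of 19) have the longest bars, and mast cells, plasma cells, adipocytes and liver have none.

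Markers of other tissues gave the following values beside these groups. Adipocyte genes averaged -0.21 to 0.31 around the Sham mean in the Sham arrays and -0.06 to 0.75 in the AB arrays, liver genes -1.07 to 0.68 and -0.71 to 0.07, and atrial genes -0.30 to 0.47 and -0.33 to 0.31. The ranges of the groups overlapped in each. In limma 0 of 9 adipocyte and 0 of 9 liver genes passed. At an unadjusted p under 0.05 the counts were 1 and 0, as they were by SAM. Of 10 measured atrial genes 1 rose and 2 fell (2 higher and 3 lower at an unadjusted p under 0.05, 2 and 2 by SAM). The number that fell was 1 without Sham 2, Sham 3, AB 1, AB 2 or AB 3, and 2 rose without AB 2. The part of these tissues in the other lists was not tested. The list of cardiomyocyte genes had 2 of 19 genes that fell, Ryr2, the calcium release channel (-0.63 ± 0.10, adjusted p = 0.000701), and Cmya5 (-0.51 ± 0.09). Its mean was -0.01 to 0.02 in the Sham arrays and -0.16 to -0.11 in the AB arrays.

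**Figure D4:**
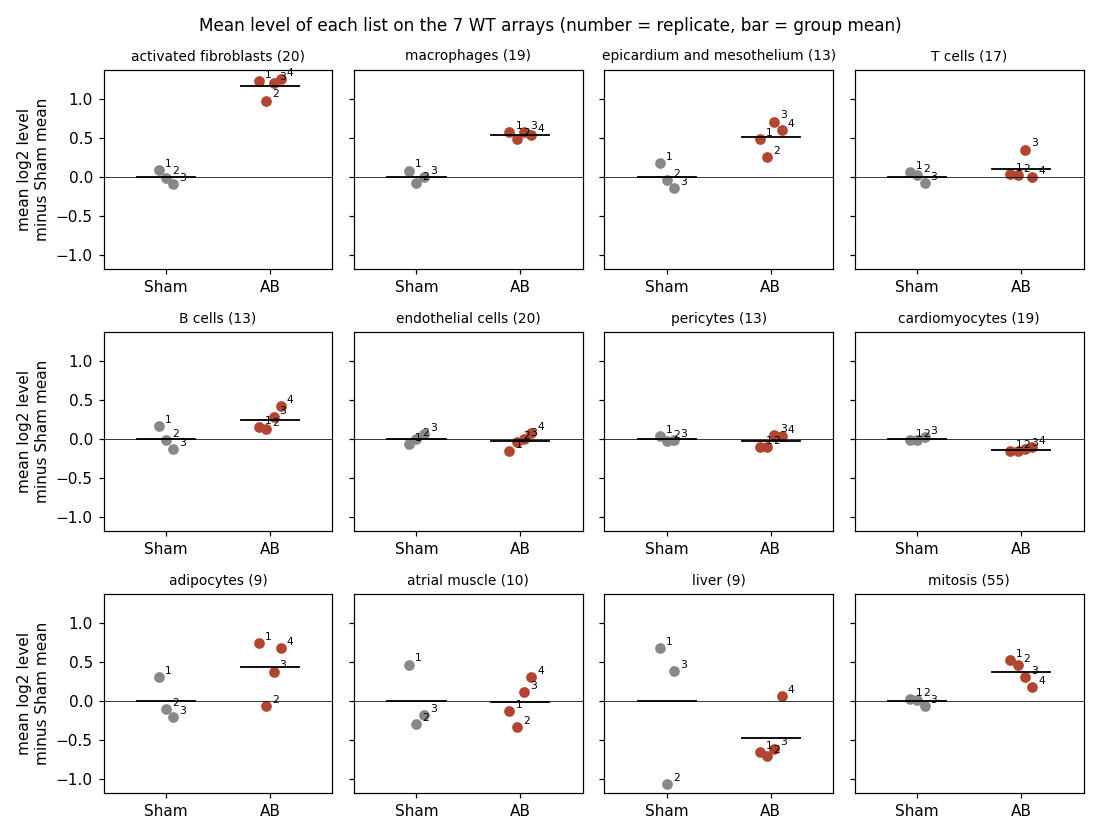
Mean log2 level of 12 lists on each WT array, minus the mean of the 3 Sham arrays. Each number is the replicate of one mouse, and the bars are group means. Activated fibroblast, macrophage and mitosis lists lie above 0 on every AB array and the cardiomyocyte list below it, while the T cell, liver and atrial panels overlap.

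Genes of complement and of the interleukin 1 and TNF families rose in part. Of 22 measured complement genes 9 rose, with a median of 0.42, and 3 rose without Sham 2 (6 without Sham 3 or AB 1). Serping1, the inhibitor of the first complement enzymes, had levels of 9.93, 9.89 and 9.91 in Sham and of 10.53, 10.37, 10.48 and 10.74 in AB and rose by 0.62 ± 0.10 (adjusted p = 0.00055). Of 22 genes of the interleukin 1 and TNF families 7 rose, and 4 without Sham 3. Tnfrsf12a, the receptor of the TNF-like cytokine TWEAK, rose by 1.52 ± 0.20 (adjusted p = 0.000117), from 7.70, 7.16 and 7.54 to 9.19, 9.0, 9.01 and 8.72. Il33, an alarm cytokine released by damaged stromal cells, rose by 0.76 ± 0.14 and Tnfaip6, a hyaluronan-binding protein, by 0.76 ± 0.10. Tlr4, the receptor of bacterial lipopolysaccharide, rose by 0.85 ± 0.13 (adjusted p = 0.000598). The cytokine Il1b itself, named for its role after its values were seen, differed by 0.47 (95% confidence interval 0.07 to 0.87, adjusted p = 0.146), with 4.17, 3.90 and 3.39 in Sham and 4.11, 4.36, 4.07 and 4.62 in AB.

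Chemokine genes rose and fell. Of 27 inflammatory chemokines and receptors 7 rose (11 without Sham 1) and 2 fell (1 without any array other than Sham 2). Ccl3, which attracts monocytes, was at 4.94, 4.15 and 4.48 in Sham and at 5.85, 5.75, 5.57 and 5.31 in AB and rose by 1.09 ± 0.20 (adjusted p = 0.00202). Cxcl16 rose by 0.61 ± 0.13, and Ccl11, the eosinophil attractant eotaxin, fell by 0.71 ± 0.10 (adjusted p = 0.000212), from 5.79, 5.62 and 5.92 to 5.10, 4.90, 5.12 and 5.15. Of 13 homeostatic chemokines and receptors 4 rose, and 2 without Sham 2, Sham 3 or AB 1. Ccl19, which guides T cells and dendritic cells within lymphoid tissue, rose by 0.84 ± 0.15 (adjusted p = 0.00139) on its brightest probe set, but by the mean of its probe sets it differed by 0.42 and did not pass (adjusted p = 0.178). Ackr2, a receptor that removes inflammatory chemokines, rose by 0.70 ± 0.11. Cxcl13, the ligand of CXCR5, differed by 2.55 ± 0.78 (adjusted p = 0.0485), from 3.41, 3.45 and 4.15 in Sham to 7.42, 4.32, 6.44 and 6.68 in AB. The AB levels were spread widely, and the call was lost without Sham 1 (adjusted p = 0.11), Sham 2 (0.152), Sham 3 (0.1), AB 1 (0.143), AB 3 (0.102) or AB 4 (0.0821). It was also lost with a robust variance model, quantile normalization, centring on array medians, all probe sets or a covariate of atrial transcripts or Alb (adjusted p between 0.0538 and 0.168). Of 25 interferon response genes 4 rose (2 without AB 1, 1 without Sham 3), among them Irf7, the factor that amplifies interferon production, at 0.59 ± 0.10. In the MHC class II list 4 of 13 rose (2 without Sham 3 or AB 1), led by Ifi30, a lysosomal reductase that readies antigens, at 0.91 ± 0.15 (adjusted p = 0.00109). B2m, the light chain of MHC class I, rose by 0.48 ± 0.10 (adjusted p = 0.00476).

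Many genes of mitosis rose with AB. Of 55 measured mitosis genes 20 rose and 2 fell, with a median of 0.35. In 27 of the 55 every AB array lay above every Sham array, which held for 9.39% of all genes. The count of genes that rose was 13 without Sham 2 or AB 1, 14 without Sham 3 and 29 without AB 4. Of 42 measured DNA replication genes 3 rose (7.14%, beside 5.10% of all genes, and 5 without AB 4), with a median of 0.13 (14 were higher at an unadjusted p under 0.05). Ccnb2, cyclin B2 of the entry into mitosis, had levels of 4.71, 4.56 and 4.72 in Sham and of 5.36, 5.42, 5.36 and 5.08 in AB. It rose by 0.64 ± 0.10 (adjusted p = 0.000469). Prc1, which bundles the microtubules between the separating chromosomes, was at 4.12, 4.11 and 4.23 in Sham and at 5.18, 5.29, 4.71 and 4.85 in AB and rose by 0.85 ± 0.13 (adjusted p = 0.000529). Ccna2, cyclin A2, rose by 0.92 ± 0.14. Cenpf, a kinetochore protein, ran the other way and fell by 0.78 ± 0.12 (adjusted p = 0.000421), from 5.53, 5.35 and 5.72 to 4.92, 4.89, 4.66 and 4.57. Mki67, the proliferation antigen Ki-67, and Top2a, a topoisomerase of condensing chromosomes, were named after their values were seen and rose by 0.83 ± 0.15 and 0.86 ± 0.16. AB 4 was the lowest AB array in Ccnb2, Ccna2, Mki67 and Top2a, and the mean of the list there was 0.18 above the Sham mean, against 0.53, 0.46 and 0.31 in AB 1, AB 2 and AB 3. Tyms, the thymidylate synthase of DNA precursors, rose by 0.65 ± 0.13 and Hells, a chromatin remodeller of replicating cells, by 0.53 ± 0.11.

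The promoters of mitosis genes share letters that the grouping did not use. Genes of this phase are known to be held down in resting cells through the cell cycle genes homology region (CHR), often near CCAAT boxes. Both strands of each RefSeq promoter, 250 bases before to 50 after the start, were searched for TTTGAA (reverse TTCAAA) as the CHR and for CCAAT (reverse ATTGG), which do not overlap in letters. Promoters were found for 45 of the 55 genes, with 49 starts. A CHR match was in 39 of the 49 (79.6%), in 5 of 43 DNA replication promoters (11.6%) and in 17.9% of all 32851 promoters. Counted by gene, 14 of 15 that rose had a CHR match, 1 of 2 that fell and 21 of 28 that did not pass. Most of the genes that did not rise thus had a match too. CCAAT was in 73.5% of the mitosis promoters, 65.1% of the DNA replication promoters, 16 of 20 clock gene promoters and 37.4% of all, and thus not at a higher share in mitosis promoters than in those of the clock. Both motifs were in 63.3% of the mitosis promoters and 6.95% of all. Shown are 100 bases up to the start of 3 genes that rose, with the matches in capitals, for Prc1 at 1 of its 2 listed starts. The rest of the searched stretch is not shown. Ccnb2 was taken because these 100 bases hold 3 CCAAT matches and no CHR match, and the others because theirs hold both. Kif11, a motor of the mitotic spindle that rose by 0.55 ± 0.11 (adjusted p = 0.00339), was chosen for these letters after its values were seen. A match of letters is a description and not a bound site. The windows are from GRCm38.p6, at chr9:70421555-70421654 on the minus strand for Ccnb2 and on the plus strand at chr7:80294376-80294475 for Prc1 and chr19:37376282-37376381 for Kif11.
Ccnb2: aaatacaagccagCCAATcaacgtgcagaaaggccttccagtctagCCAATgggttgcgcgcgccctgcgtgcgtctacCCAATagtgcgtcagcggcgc
Prc1: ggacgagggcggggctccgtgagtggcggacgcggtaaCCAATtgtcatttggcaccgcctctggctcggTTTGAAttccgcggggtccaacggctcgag
Kif11: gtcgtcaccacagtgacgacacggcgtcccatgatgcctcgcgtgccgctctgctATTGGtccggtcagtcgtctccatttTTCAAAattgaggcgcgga

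Clock genes fell in part. Of 17 measured clock genes 5 fell, with a median of -0.45, but 0 fell without Sham 2 or without Sham 3, 1 without AB 3 or AB 4, and 8 without Sham 1. Per3, a period gene, was at 6.62, 7.11 and 7.45 in Sham and at 6.53, 6.41, 6.25 and 5.82 in AB. Sham 1 stood apart from the other Sham arrays and close to AB 1, and the fall of 0.81 ± 0.24 (adjusted p = 0.042) was lost without Sham 2 (adjusted p = 0.133), Sham 3 (0.244), AB 2 (0.0538), AB 3 (0.081) or AB 4 (0.0924), and with a robust variance model (0.0635). Hlf, an output factor of the clock, fell by 0.79 ± 0.19 (adjusted p = 0.0146; 0.0746 without Sham 2 and 0.106 without Sham 3). Arntl, the factor BMAL1 that peaks opposite to the Per genes, was named after its values were seen. It had levels of 6.16, 5.34 and 4.96 in Sham and of 5.87, 5.80, 7.02 and 7.61 in AB, a difference of 1.09 ± 0.43 that did not pass (adjusted p = 0.142). The mean of the list was -0.31 in Sham 1, 0.16 in Sham 2 and 0.15 in Sham 3, and -0.18, -0.19, -0.35 and -0.45 in AB 1 to AB 4. No source used here states the time of day at which tissue was taken, and its part in the result was not tested. Among 20 promoters of the clock genes 6 hold the E-box letters CACGTG (their own reverse), which 7.15% of all promoters hold and which BMAL1 and CLOCK bind. The promoter of Per3 is shown because it was the single one of the 20 with the D-box letters TTATGTAA, the site that HLF and its relatives DBP and TEF bind. It holds them in 2 places, which begin 205 and 158 bases before the start, and 0.938% of all promoters hold them. The 220 bases before the start are given in capitals where they match, at chr4:151044666-151044885 on the minus strand of GRCm38.p6.
Per3: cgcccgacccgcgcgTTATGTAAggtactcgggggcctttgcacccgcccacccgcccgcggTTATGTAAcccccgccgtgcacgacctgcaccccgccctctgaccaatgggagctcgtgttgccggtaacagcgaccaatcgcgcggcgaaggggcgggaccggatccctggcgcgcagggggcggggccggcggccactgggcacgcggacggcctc

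**Figure D5:**
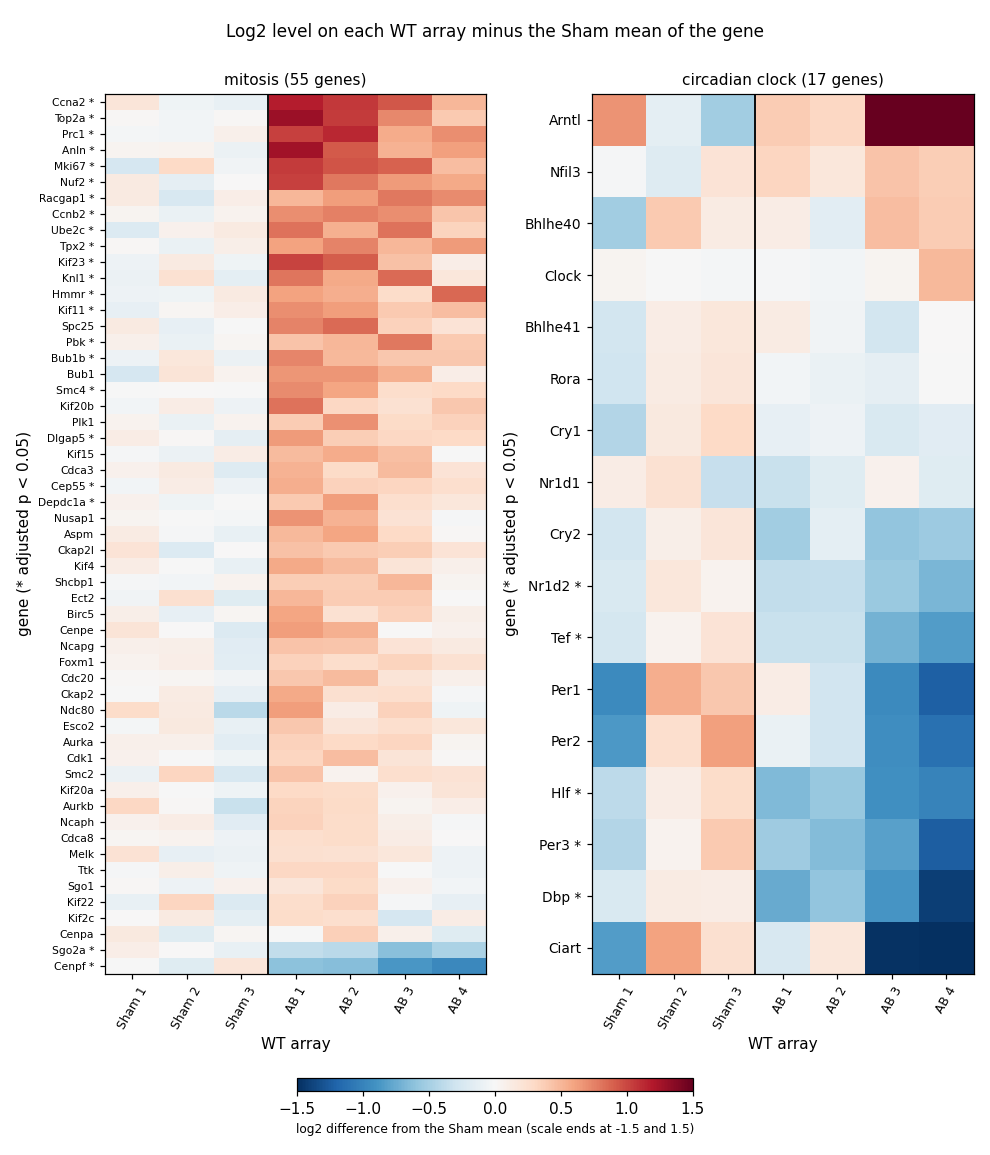
Log2 level on each WT array minus the mean of the 3 Sham arrays, for 55 mitosis genes (left) and 17 clock genes (right); asterisks mark genes with an adjusted p under 0.05. Most mitosis genes are above the Sham mean on AB 1 to AB 3 and less so on AB 4, while the clock genes vary among the Sham arrays, with Sham 1 apart from Sham 2 and Sham 3.

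Genes of the TGF-beta and Wnt pathways moved in both directions. Of 37 TGF-beta genes 12 rose and 1 fell (2 without Sham 1, 0 without Sham 2 or Sham 3). Tgfb2, a ligand, had levels of 5.61, 5.60 and 5.67 in Sham and of 6.65, 6.52, 6.86 and 7.26 in AB and rose by 1.19 ± 0.14 (adjusted p = 4.92e-05). Tgfb1 rose by 0.79 ± 0.11 and the follistatin-like protein Fstl1 by 1.26 ± 0.17. Of 41 Wnt pathway genes 5 rose and 2 fell (1 without Sham 3). Frzb and Sfrp1, secreted proteins that bind Wnt ligands, were among those that rose, Frzb with 6.00, 5.85 and 6.19 in Sham and 7.88, 7.52, 8.0 and 8.10 in AB (1.86 ± 0.14, adjusted p = 5.88e-07) and Sfrp1 with a rise of 1.35 ± 0.15. Lgr6, a receptor of Wnt-enhancing R-spondins, fell by 0.74 ± 0.10 (adjusted p = 0.000166). In limma 0 of 21 Notch pathway genes passed (2 higher and 1 lower at an unadjusted p under 0.05, 0 by SAM), and 1 rose without AB 1 or without AB 2.

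Growth factors for vessels, heart muscle and nerves moved in both directions. Angpt1, the angiopoietin that steadies vessels through the receptor Tie2, went from 7.25, 7.43 and 7.50 in Sham to 5.99, 5.91, 6.29 and 6.15 in AB. It fell by 1.31 ± 0.12 (adjusted p = 4.77e-06), and the groups lay far apart. Tek, the gene of Tie2, and Vegfa were named for their role after their values were seen and differed by -0.17 (95% confidence interval -0.40 to 0.07) and -0.08 (-0.36 to 0.20). Vegfd, a ligand of lymphatic and blood vessels, rose by 0.79 ± 0.15. Hbegf, a ligand of the EGF receptor family, rose by 0.74 ± 0.12 (adjusted p = 0.000683) while Erbb4, the receptor through which cardiomyocytes sense neuregulin, fell by 0.71 ± 0.12 (adjusted p = 0.00123), from 6.58, 6.70 and 6.85 to 5.99, 5.86, 5.96 and 6.18. Of the proteins that bind IGF in the tissue, Igfbp6 rose by 1.52 ± 0.18 and Igfbp7 by 0.95 ± 0.11. Ptn, pleiotrophin, which promotes the growth of nerve fibres, rose by 1.63 ± 0.13 (adjusted p = 6.98e-07), and Gfra1, a receptor for nerve growth factors of the GDNF family, fell by 0.74 ± 0.11. Plxnb1, a semaphorin receptor, fell by 0.97 ± 0.13 (adjusted p = 0.000131) and Epha4, an ephrin receptor, by 0.90 ± 0.12.

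Of 17 measured genes of adrenergic, muscarinic and other heart receptors and their ligands 4 fell and 3 rose, with a median of 0.04. Chrm2, the muscarinic receptor of the vagus nerve, was at 9.74, 9.91 and 9.97 in Sham and at 9.02, 8.68, 9.23 and 9.45 in AB and fell by 0.77 ± 0.14 (adjusted p = 0.00161). Adra1b, an adrenergic receptor, fell by 0.51 ± 0.10 and Nr3c2, the mineralocorticoid receptor, by 0.60 ± 0.12. Adcy6, a main adenylyl cyclase of cardiomyocytes, fell by 0.83 ± 0.14 (adjusted p = 0.00122), while Adcy7, a form of blood and stromal cells, rose by 0.77 ± 0.13 (adjusted p = 0.0012). Thrb, a thyroid hormone receptor, fell by 0.74 ± 0.12, and Dio2, the enzyme that makes active thyroid hormone inside cells, rose by 1.24 ± 0.22 (adjusted p = 0.00157) from 5.2, 5.28 and 4.86 to 6.45, 5.80, 6.40 and 6.78. Ace, the angiotensin-converting enzyme, rose by 0.66 ± 0.13, and so did Edn3, an endothelin, by 0.82 ± 0.13 (adjusted p = 0.000645) and Ednrb, an endothelin receptor named after its values were seen, by 0.41 ± 0.11 (adjusted p = 0.0199). The call of Ednrb was lost without Sham 1 (0.0599), Sham 2 (0.0821) or AB 1 (0.0503). Corin, the protease that activates the natriuretic peptide ANP, fell by 1.21 ± 0.16 (adjusted p = 0.000117), with 9.21, 9.77 and 9.69 in Sham and 8.40, 8.14, 8.21 and 8.62 in AB.

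Ion channel genes fell. Of 29 potassium channel genes 9 fell and 1 rose (0 without Sham 2, Sham 3, AB 3 or AB 4), with a median of -0.27, and of 20 sodium, chloride and pacemaker genes 7 fell and 1 rose (2 without AB 2). Kcnj5, a subunit of the channel that the vagus nerve opens, fell by 0.94 ± 0.15 (adjusted p = 0.000554), and Kcnh2, which carries a repolarising current, by 0.64 ± 0.10, from 7.89, 8.18 and 8.22 to 7.41, 7.46, 7.49 and 7.46. Scn4b, a subunit that tunes the sodium channel, was at 6.60, 6.38 and 6.82 in Sham and at 5.08, 5.30, 5.85 and 5.59 in AB and fell by 1.15 ± 0.16 (adjusted p = 0.000146). Clcn1, a chloride channel of muscle, fell by 0.92 ± 0.11 (adjusted p = 5.64e-05). Fxyd5, a regulator of the sodium pump, rose by 1.25 ± 0.13 (adjusted p = 1.56e-05), from 8.49, 8.44 and 8.41 to 10.07, 9.46, 9.76 and 9.51. Of 31 genes of calcium channels and release 5 fell and 1 rose, and 2 fell without any of Sham 2, Sham 3, AB 1, AB 2 or AB 3.

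At the intercalated disc the desmosomal cadherins fell and the Xin proteins rose. Of 24 listed genes 7 fell and 2 rose, and 4 fell without Sham 2 or Sham 3, while 1 rose without Sham 1, Sham 2, AB 1, AB 3 or AB 4. Dsg2, desmoglein 2, had levels of 7.77, 8.12 and 7.96 in Sham and of 6.90, 6.97, 7.0 and 6.99 in AB. It fell by 0.99 ± 0.11 (adjusted p = 1.97e-05), and its partner Dsc2, desmocollin 2, by 0.78 ± 0.11. Ctnna3, a catenin of the disc, fell by 0.80 ± 0.15. Gja1, the gap junction protein connexin 43, was named for its role after its value was seen and differed by -0.22 (95% confidence interval -0.52 to 0.09). Xirp2, an actin-binding Xin protein of disc and Z-disc, rose by 1.18 ± 0.10 (adjusted p = 1.73e-06), from 10.40, 10.38 and 10.57 to 11.82, 11.73, 11.37 and 11.58.

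Z-disc and cytoskeleton genes rose. Of 28 Z-disc and stretch genes 11 rose, with Ankrd23, a stretch-sensing ankyrin protein, at 0.83 ± 0.09 (adjusted p = 1.77e-05) and Pdlim7 at 0.65 ± 0.10. Of 38 actin regulators 15 rose, with a median of 0.27, and 9 without Sham 2 or Sham 3. Enah, which lengthens actin filaments, stood at 8.75, 8.80 and 8.90 in Sham and at 9.79, 9.76, 9.60 and 9.73 in AB and rose by 0.91 ± 0.09 (adjusted p = 7.9e-06). Capg, an actin-capping protein abundant in macrophages, rose by 1.12 ± 0.12 and Cfl1, cofilin, by 0.78 ± 0.10. Of 23 tubulin and microtubule genes 6 rose and 1 fell. Tuba1a rose by 0.79 ± 0.10 (adjusted p = 8.81e-05), from 9.51, 9.15 and 9.31 to 10.15, 9.97, 10.10 and 10.23, whereas Tuba4a, a form of adult muscle, fell by 0.42 ± 0.09. Of 26 annexin, S100 and galectin genes 11 rose and 2 fell, and 7 rose without Sham 2. S100a11 rose by 0.89 ± 0.14 and Anxa1, which helps to seal damaged membranes, by 0.92 ± 0.12 (adjusted p = 8.61e-05). Lgals4, a galectin, fell by 1.30 ± 0.14 (adjusted p = 1.32e-05), with 7.89, 7.51 and 7.46 in Sham and 6.31, 6.55, 6.24 and 6.20 in AB. Rcan1, the inhibitor that calcineurin induces, rose by 1.67 ± 0.12 (adjusted p = 2.12e-07), while the cardiac factors Hopx and Tbx5 fell by 0.93 ± 0.13 and 0.70 ± 0.12.

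Among 296 genes of microRNA precursors on the array 5 rose and 6 fell, both smaller shares than the 5.10% and 4.22% over all genes. The number that rose was 2 without Sham 2, 1 without Sham 3 or AB 1 and 3 without AB 3, and the number that fell was 1 without Sham 3. Such probe sets can pick up the precursor or the host transcript around it, and mature microRNAs were not measured here. All microRNA genes were named after their values were seen. Mir208a, which lies in the cardiac myosin gene Myh6, is the best known heart-specific form, and Mir221 and Mir222 are neighbours of stromal and vascular cells. The mature sequences are shown because forms from separate genes share all or most of the seed (bases 2 to 8, in capitals), the stretch that pairs with target transcripts. Mir208b, shown for its seed, is not analysed here. The RefSeq sequences (GRCm38.p6) lie at chr14:54949072-54949093 for miR-208a-3p and chr14:54975710-54975731 for miR-208b-3p (minus strand), chr2:155622893-155622913 for miR-499-5p (plus strand), and chrX:19146307-19146329 for miR-221-3p and chrX:19146901-19146923 for miR-222-3p (minus strand).
miR-208a-3p: aUAAGACGagcaaaaagcuugu
miR-208b-3p: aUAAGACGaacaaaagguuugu
miR-499-5p: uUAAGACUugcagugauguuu
miR-221-3p: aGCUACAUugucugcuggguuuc
miR-222-3p: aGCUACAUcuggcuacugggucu

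The probe set of Mir208a, which can pick up precursor or host transcript, was lower with AB. Mir208a stood at 7.48, 6.99 and 7.77 in Sham and at 6.26, 6.85, 6.54 and 6.71 in AB and fell by 0.82 ± 0.18 (adjusted p = 0.00826, and 0.0726 without Sham 3). Its host Myh6, the fast myosin of the adult mouse ventricle, differed by -0.25 ± 0.08 (adjusted p = 0.066, and 0.0378 without AB 4). Mir499, with a related seed, differed by -0.09 ± 0.13, while its host Myh7b, also named after its values were seen, fell by 0.64 ± 0.13 (adjusted p = 0.00471). Mir1a-2 was at 5.11, 4.18 and 5.43 in Sham and at 3.42, 3.79, 3.07 and 3.51 in AB and fell by 1.46 ± 0.34 (adjusted p = 0.0102, and 0.0844 without Sham 3). Mir1a-1, the other gene of the same muscle microRNA, differed by -0.55 ± 0.26 (adjusted p = 0.235, and 0.0278 without Sham 2). Mir221 rose by 0.45 ± 0.12 (adjusted p = 0.0268, and 0.0629 with the 7 WT arrays alone, 0.148 without Sham 2, 0.149 without Sham 3 and 0.0832 without AB 1), and Mir222, with the same seed, differed by 0.13 ± 0.11 (adjusted p = 0.588). The 95% confidence intervals of the pair, 0.19 to 0.71 and -0.11 to 0.37, overlapped, and the difference between them was not tested.

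Genes of several other families had differences of more than 1. Nox4, an oxidase that makes hydrogen peroxide, rose by 2.01 ± 0.18 (adjusted p = 2.87e-06), from 4.34, 4.58 and 4.62 in Sham to 6.93, 6.62, 6.24 and 6.30 in AB. Serpina3n, a secreted protease inhibitor, rose by 1.78 ± 0.22, with levels of 7.04, 6.78 and 6.68 in Sham and of 8.83, 7.93, 8.74 and 8.96 in AB. Emp1, an epithelial membrane protein, rose by 1.57 ± 0.14, Pamr1, a protein with a peptidase-like domain, by 1.69 ± 0.21 and Ctsk, the collagen-cleaving cathepsin K, by 1.43 ± 0.10. On the falling side Mylk4, a heart-enriched kinase of the myosin light chain kinase family, fell by 1.23 ± 0.12, Slc20a2, a phosphate transporter, by 1.19 ± 0.23 and Gpr22, an orphan receptor of heart and brain, by 1.13 ± 0.15. The groups did not overlap in any of these genes, which was a condition of the list of largest changes they came from.

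In CXCR5-/- hearts the same operations gave 1650 genes that rose (8.28%) and 1168 that fell (5.86%), from other mice. Of the genes that rose in WT hearts, 852 also rose in CXCR5-/- hearts, which is 83.9% of the WT list and 51.6% of the CXCR5-/- list, and of those that fell 696 also fell (82.7% and 59.6%). The shared counts were 506 and 407 without WT Sham 2 and 568 and 353 without WT Sham 3. The test of the difference between the AB responses of the genotypes passed for 0 of 19937 genes in limma, with 574 at an unadjusted p under 0.05 and a smallest adjusted p of 0.804. Branched-chain amino acid breakdown had 12 of 20 genes that fell in CXCR5-/- hearts, activated fibroblasts 13 of 20 that rose, macrophages 16 of 19 and mitosis 29 of 55. Ppm1k differed there by -1.08, Angpt1 by -1.24, Frzb by 2.20 and Prc1 by 0.82, each with an adjusted p under 0.05. Other named genes did not pass in CXCR5-/- hearts, such as Scn4b at -0.39 (limma adjusted p = 0.112), Ackr2 at 0.21 (0.253) and Ccl19 at -0.31 (0.207).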

How the data were processed

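Total RNA of 14 left ventricles (4 WT AB, 3 WT Sham, 4 CXCR5-/- AB, 3 CXCR5-/- Sham) had been hybridised to Affymetrix mouse Gene ST 1.0 arrays, 1 mouse per array. The deposited values are log2 expression levels per probe set that the authors made by robust multi-array average (RMA), which corrects background, equalises the arrays and can compress small changes of dim genes. Array medians lay between 5.19 and 5.30, and the number of arrays limits the precision. Of 34760 probe sets 21640 had 1 gene symbol, 1321 several and 11799 none in the platform annotation (21553 matched RefSeq). The probe set with the highest mean represented each of 19937 genes, 954 of which had several, and no filter on dim genes was applied.

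AB and Sham were compared with limma 3.58.1 in R 4.3.3 in a fit of the 4 groups (10 residual degrees of freedom), with Benjamini-Hochberg adjustment over all genes. Promoter and microRNA sequences were of RefSeq, GRCm38.p6. Tested on simulated data with 200 of 19937 genes changed, the fit found 45.5% of changes of 0.5 and 96.5% of changes of 1. Members and lists were chosen with earlier results of these data known. Genes were named from up to 4 per list with the smallest p and the first 3 markers of each cell type. The 15 largest non-overlapping rises and falls outside matrix, hypertrophy, fatty acid, small RNA and unnamed genes were another source, with Cxcr5 and Cxcl13. Not every gene of these sets is given in the text. Of 186 genes named, 32 fell outside these sets and are marked where they appear. Alternatives were other variance models, array weights, the WT arrays alone, a filter on dim genes, other scalings and probe set choices, a replicate block, significance analysis of microarrays (SAM), leaving out each WT array and, added after seeing the data, covariates of atrial transcripts and Alb. No source used here states when the arrays were scanned.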

Additional observations from a re-analysis of the deposited data

Results flagged for a closer look

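In a few results 1 AB array lay far from the other 3, which chance alone gives in about 1 in 20 groups. Ctsk was at 7.05 in AB 2 against 6.94 to 6.96 in the others, Dsc2 at 7.30 in AB 4 against 7.05 to 7.07, Slc16a7 at 5.27 in AB 1 against 5.62 to 5.66, and Tnfaip6 at 6.04 in AB 4 against 5.80 to 5.84. The mean of the T cell list was 0.35 above the Sham mean in AB 3 against 0.00 to 0.03 in the others, and the mean of the liver list was 0.07 in AB 4 against -0.71 to -0.61.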

How the results depend on the processing

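The counts of 1016 genes that rose and 842 that fell moved most with the weight given to single arrays. With estimated array weights they were 1775 and 1633, and 1387 and 1285 genes were shared with CXCR5-/- hearts in place of 852 and 696. Leaving out 1 WT array gave 560 to 1124 genes that rose and 391 to 998 that fell, with 506 to 898 and 353 to 780 shared. Whether the same replicate numbers mark paired mice could not be settled from so few arrays. The deviations of same-numbered WT arrays correlated at 0.264, -0.063 and 0.139. AB 1 and AB 3 each correlated best with the Sham array of the same number, and AB 2 and Sham 3 each with another number. With a replicate block in the fit of 4 groups 1354 genes rose and 1282 fell, and in the WT arrays alone 1237 and 1135. Other settings gave 756 to 1092 genes that rose and 595 to 896 that fell, from the WT arrays alone, SAM, other scalings, variance models, probe set choices, the filter and the covariates. Of 158 named genes that passed, each of the alternatives that left out no array kept 156 to 158, and those that left out 1 array 149 to 157, and none reversed. The test of the difference between genotypes passed for 0 genes in each leave-one-out fit.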
